A study of Homo sapiens with 6 samples.

Results

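The cholesterol synthesis and SREBP genes described here are 8 of the 25420 genes in the deposited SLAM-seq tables. They are SREBF1, SREBF2, INSIG1, HMGCS1, IDI1, FDFT1, SQLE and DHCR7, chosen by name as genes of this pathway and found in the tables by their Entrez identifiers. SLAM-seq labels new RNA with 4-thiouridine (4sU), which sequencing shows as C where the genome has T once it has been alkylated, so that reads with T > C conversions come largely from transcripts made during labelling. MOLM-13 is an established human acute myeloid leukaemia cell line, and C646 is an inhibitor of the histone acetyltransferases CBP and p300. In 1 group the cells received 10 µM C646 and in the other the solvent DMSO, each for 2 h, and both groups were given 100 µM 4sU for the last 60 min. Each group has 3 libraries, numbered 1 to 3 in the labels, which do not say whether they came from separate cultures, so p-values measure the spread between these samples, which may be technical. The study used this comparison to look for genes whose new transcripts respond quickly to inhibition of CBP and p300.

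Cells make cholesterol from acetyl-CoA through the mevalonate pathway, and they adjust its enzymes to the sterol content of the endoplasmic reticulum. When sterols are low, the escort protein SCAP carries the SREBP precursors to the Golgi, where proteases release the part that binds sterol regulatory elements (SREs) in promoters and activates the genes. When sterols are plentiful, INSIG proteins hold SCAP and SREBP in the endoplasmic reticulum. SREBF2 encodes SREBP2, known mainly for cholesterol genes, and SREBF1 encodes SREBP1, whose 1c form is known mainly for fatty acid genes.

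Between 7252597 and 10225448 reads per library fell on annotated 3′ UTRs, of which 477824 to 833410 had T > C conversions. T > C reads made up 8.74% to 8.86% of the reads of the DMSO libraries and 6.34% to 6.71% of those of the C646 libraries. All 9 myeloid markers on a fixed list reached 1 CPM (1 read in 1000000 reads on 3′ UTRs), with summed levels of 3418 to 3696 CPM in DMSO and 3605 to 3693 in C646, whereas none of 4 erythroid, 1 of 4 T cell, 1 of 4 B cell and 2 of 5 epithelial and fibroblast markers did. No library without 4sU was analysed here, so the level of T > C reads that sequencing errors alone give was not measured.

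To place the genes, promoter stretches of 5 of them are shown first, and those of DHCR7 are not shown. These 5 genes were picked with their values known, and whether their sequences bear on the response to C646 was not tested. The stretches are the 250 bases before a RefSeq start site (GRCh38.p14), written 5′ to 3′ on the strand of the gene. They lie at chr22:41832855-41833104 on the plus strand (SREBF2), chr17:17836987-17837236 on the minus strand (SREBF1), chr7:155297628-155297877 on the plus strand (INSIG1), chr10:1049120-1049369 on the minus strand (IDI1, 1 of 3 windows) and chr5:43313413-43313662 on the minus strand (HMGCS1, 1 of 2 windows). Capitals mark matches, on either strand, to the SRE core, spelled TCACNCCAC, to the CCAAT box, which reads ATTGG when it lies on the opposite strand, to the E-box, spelled CACGTG, and to the TATA box, spelled TATAAA.
SREBF2: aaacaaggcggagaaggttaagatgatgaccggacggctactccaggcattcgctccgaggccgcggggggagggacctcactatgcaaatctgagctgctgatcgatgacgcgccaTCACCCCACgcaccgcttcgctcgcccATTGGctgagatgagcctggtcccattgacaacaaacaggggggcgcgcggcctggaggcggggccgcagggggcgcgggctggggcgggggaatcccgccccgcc
SREBF1: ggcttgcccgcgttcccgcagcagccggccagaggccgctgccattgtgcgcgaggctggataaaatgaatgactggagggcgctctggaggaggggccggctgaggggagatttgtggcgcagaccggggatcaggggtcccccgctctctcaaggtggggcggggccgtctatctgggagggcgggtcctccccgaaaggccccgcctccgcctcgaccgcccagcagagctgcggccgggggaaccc
INSIG1: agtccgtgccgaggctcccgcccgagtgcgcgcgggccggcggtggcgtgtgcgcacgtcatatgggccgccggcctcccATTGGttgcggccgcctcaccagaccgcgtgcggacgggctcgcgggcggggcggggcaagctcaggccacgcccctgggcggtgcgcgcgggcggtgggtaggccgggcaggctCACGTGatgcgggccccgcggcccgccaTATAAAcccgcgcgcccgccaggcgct
IDI1: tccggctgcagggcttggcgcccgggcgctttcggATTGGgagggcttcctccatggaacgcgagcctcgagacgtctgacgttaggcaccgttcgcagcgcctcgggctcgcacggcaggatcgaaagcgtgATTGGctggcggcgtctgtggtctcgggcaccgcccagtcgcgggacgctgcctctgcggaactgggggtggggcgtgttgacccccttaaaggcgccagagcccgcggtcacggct
HMGCS1: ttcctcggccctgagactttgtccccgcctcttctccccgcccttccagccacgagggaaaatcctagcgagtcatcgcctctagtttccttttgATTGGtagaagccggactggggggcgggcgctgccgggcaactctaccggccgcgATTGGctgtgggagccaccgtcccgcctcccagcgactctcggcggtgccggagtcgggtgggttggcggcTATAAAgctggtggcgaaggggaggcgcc

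The SRE core stood in the SREBF2 window alone, 133 bases before the start site, and 1.13% of the 35116 RefSeq windows (250 bases before to 50 bases after a start site) held it. The 6 members with a RefSeq window have 10 windows, of which 6 held CCAAT (1 each of SREBF2, INSIG1, HMGCS1 and DHCR7 and 2 of IDI1), against 34.6% of all windows. The E-box was found in 1 of the 10 (INSIG1, 7.26% of all windows) and TATAAA in 2 (INSIG1 and HMGCS1, 11.5% of all windows). The GC box, spelled GGGCGG and left in lower case, was matched in 9 of the 10 and in 44.95% of all windows. These are matches of letters within 300 bases and show no binding. Other spellings of the SRE and sites outside the windows were not searched, and SQLE and FDFT1 had no window.

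The reads were counted at the other end of the transcripts. The 3′ UTR entries that held the reads lie at chr17:17811349-17812621 for SREBF1 (Entrez 6720), chr22:41905661-41907308 for SREBF2 (6721), chr7:155308241-155310235 for INSIG1 (3638) and chr5:43287470-43291130 for HMGCS1 (3157). Those of the others lie at chr10:1039420-1041504 for IDI1 (3422), chr8:11838610-11839309 for FDFT1 (2222), chr8:125021946-125022283 for SQLE (6713) and chr11:71434411-71435374 for DHCR7 (1717), all in GRCh38. In GENCODE release 44, between 99.9% and 100% of the bases of these entries belong to a UTR of the same gene, except in IDI1, where 84.9% do. IDI1 has 4 further entries, which held 1.06% of its reads together, and INSIG1 has 1 further entry with no read. None of the 8 genes overlaps another gene of the tables on its strand, and at most 1.13% of a gene's reads (SREBF1) were multimapped.

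The 3′ UTRs of the enzymes SQLE, FDFT1 and IDI1 are rich in ATTTA, the core of AU-rich elements, which are known from short-lived mRNAs. SQLE has 3 in 338 bases, or 8.88 per kb, more than 98.7% of the 8607 genes with at least 50 reads per DMSO library. FDFT1 has 5 in 700 bases, or 7.14 per kb (more than 97.2% of these genes). IDI1 has 13 in 2085 bases, or 6.24 per kb (more than 95.5% of these genes). HMGCS1 has 12 (3.28 per kb), INSIG1 6 (3.01 per kb), SREBF2 4 (2.43 per kb), DHCR7 2 (2.07 per kb) and SREBF1 1 (0.786 per kb), against a median of 1.58 per kb.

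FDFT1, which encodes squalene synthase, the first enzyme of the sterol branch, could not be measured. It had 10 reads in all 6 libraries together, at most 3 in any of them, and no T > C read. Its 3′ UTR entry ends 86 bases before the end of the gene in GENCODE, and whether reads fell on those bases was not tested. It did not pass the filter on low counts, so that 7 of the 8 genes were tested.

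Baseline turnover was read from the DMSO libraries, as the share of a gene's reads with T > C conversions, so that a larger share marks an mRNA of which more was made in the last 60 min. INSIG1 and IDI1 had the largest shares, at 21.2% ± 2.90 and 21.1% ± 4.42 (SD, n = 3 libraries each here and below). Those of SREBF1 (14.3% ± 9.29), HMGCS1 (10.5% ± 1.83) and SQLE (8.30% ± 1.44) came next, and SREBF2 (5.29% ± 0.931) and DHCR7 (4.41% ± 1.73) had the smallest. The median gene stood at 11.6%. INSIG1 and IDI1 lay above 78.0% and 77.9% of the 8607 genes, and SREBF2 and DHCR7 above 15.9% and 11.0%.

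In that order, INSIG1 and IDI1 could not be told apart, with 18.2% to 24.1% and 18.1% to 26.2%. Both lay above every DMSO library of HMGCS1 (8.59% to 12.2%). HMGCS1 overlapped SQLE (7.02% to 9.86%), and SREBF2 (4.62% to 6.35%) overlapped DHCR7 (2.51% to 5.87%) but not SQLE. SREBF1 spread from 6.25% to 24.5% on 48 to 115 reads per library and overlapped all others but DHCR7, so its place in the order is not known. Counted as conversions per covered T, which takes the base content of the reads into account, INSIG1 and IDI1 again had the highest values (15.01 ± 1.61 and 15.5 ± 3.54 per 1000 T bases) and DHCR7 the lowest (2.95 ± 1.24).

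**Figure D1:**
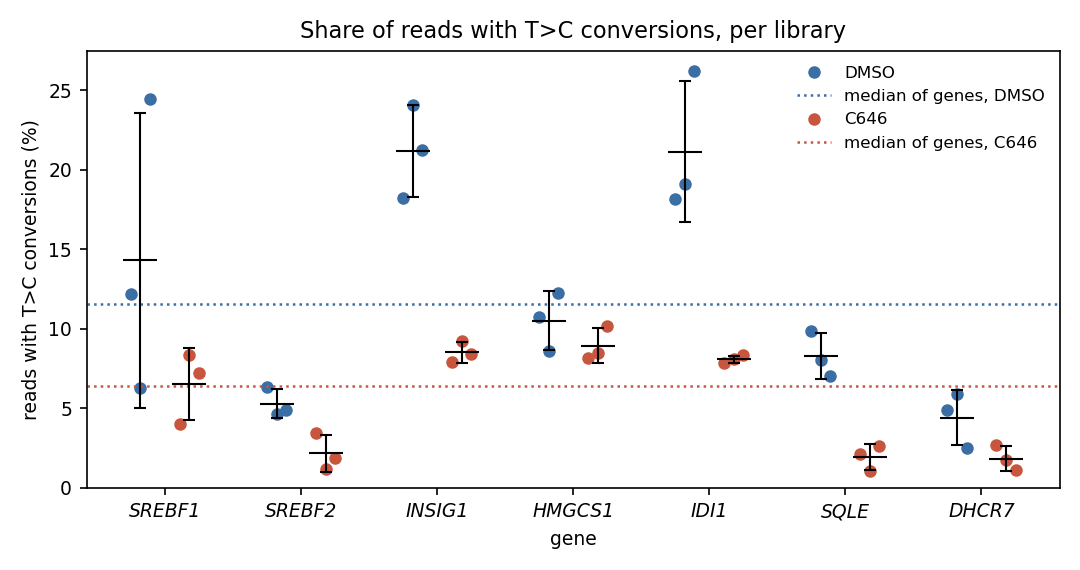
Share of reads with T > C conversions (%, y axis) of the 7 measured genes (x axis) in each library of the DMSO (blue) and C646 (red) groups. Black lines give the mean and SD of 3 libraries and dotted lines the median over genes, 11.6% in DMSO and 6.38% in C646. INSIG1 and IDI1 lie highest in DMSO, and their C646 libraries, like those of SQLE and SREBF2, lie below all DMSO libraries of the same gene, as in 64.6% of 7709 genes.

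After C646, T > C reads of SQLE, INSIG1 and IDI1 fell past the thresholds on the main scaling. Those of SREBF2 and DHCR7 missed the threshold on p, and those of HMGCS1 and SREBF1 missed both thresholds. The total mRNA of the members did not fall past the thresholds. Calls were made with edgeR's quasi-likelihood test at a Benjamini-Hochberg adjusted p of at most 0.01 over all genes and a log2 fold change of 1 or more in either direction. T > C reads were scaled by the TMM-adjusted total of all reads, so that they are set against total mRNA, and levels are given in CPM on that scale. 3 of the 7 tested members were called lower and none was called higher. Over all 7722 tested genes, 33.0% were called lower and 2.97% higher, with a median log2 fold change of -0.83, so the members' share of calls lies near that of all genes. When T > C reads were scaled by TMM on themselves, the split over all genes turned to 596 lower and 717 higher of 7847 tested. The median of the 7 members was -1.31, and 5 of them lay below the median of all genes. edgeR gave 0 members higher also at an unadjusted p below 0.05, and DESeq2 called 0 higher and 3 lower. Bulk libraries cannot tell fewer cells with a transcript from less RNA per cell.

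New transcripts can also be described without any scaling, by the odds of a T > C read against another read of the same gene in the same library. In edgeR's test of these odds, SQLE, INSIG1, IDI1 and SREBF2 were called lower (4 of 7) and none higher, also at an unadjusted p below 0.05. Of all 7722 genes, 38.3% were called lower and 0.79% higher, with a median log2 change of -1.004.

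The regulators are described first. INSIG1, whose protein retains SCAP and SREBP in the endoplasmic reticulum and which is itself an SREBP target, had 296, 255 and 251 T > C reads in DMSO libraries 1, 2 and 3 and 96, 101 and 132 in C646. On the CPM scale these were 31.2, 35.4 and 33.8 in DMSO and 12.7, 12.4 and 13.1 in C646. The groups were far apart, with little spread within either. The log2 fold change was -1.39 (SE 0.186, adjusted p = 4.4e-07 by edgeR), and the call was lost with TMM on the T > C reads (-0.56, adjusted p = 0.022). All reads of INSIG1 amounted to 171, 147 and 159 CPM in DMSO and 160, 134 and 155.5 CPM in C646. The groups overlapped, and the log2 fold change of all reads was -0.09 (95% confidence interval -0.37 to 0.20). The T > C share was 8.53% ± 0.662 in C646 against 21.2% ± 2.90 in DMSO, and the odds of a T > C read changed by -1.52 on the log2 scale (SE 0.203, adjusted p = 1.9e-06 by edgeR).

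SREBF2, which encodes SREBP2, had 58, 29 and 34 T > C reads in DMSO and 26, 8 and 16 in C646, or 6.12, 4.03 and 4.58 CPM against 3.44, 0.982 and 1.59 CPM. All C646 libraries lay below all DMSO libraries, C646 library 1 the closest to them. The log2 fold change of -1.31 (SE 0.426) had an adjusted p of 0.0103 by edgeR and so missed the threshold narrowly. Without C646 library 1 it was -1.90 and was called (adjusted p = 0.00092 by edgeR), and plain totals (adjusted p = 0.0098), DESeq2's size factors in edgeR (0.0099), no filter on low counts (0.0070) and the replicate block (-1.39, adjusted p = 0.0049) also gave a call. DESeq2's own Wald test (-1.32, adjusted p = 0.015) and the 3′ UTR entry with the most reads (adjusted p = 0.0104) did not. The call was missed with each other library left out (-1.44 to -0.9991, the latter without C646 library 2, and -1.11 with an adjusted p of 0.081 without DMSO library 1), with totals of all filtered reads (-1.12, adjusted p = 0.033) or with TMM on the T > C reads (-0.48, adjusted p = 0.42). The odds of a T > C read fell by 1.34 on the log2 scale (SE 0.343, adjusted p = 0.0020 by edgeR). That call was lost without DMSO library 1 (-1.18, adjusted p = 0.022) and without C646 library 2 (-1.07, adjusted p = 0.014). All reads stood at 96.4, 87.2 and 93.6 CPM in DMSO and 100.1, 82.1 and 85.1 CPM in C646, with a log2 fold change of -0.05 (95% confidence interval -0.34 to 0.24).

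SREBF1, which encodes SREBP1, had the largest difference in all reads of the 7, with higher values in C646. All reads were 12.1, 6.66 and 12.7 CPM in DMSO (115, 48 and 94 reads) and 23.2, 16.2 and 23.3 CPM in C646 (175, 132 and 235 reads). Each C646 library lay above each DMSO library, of which library 2 was the lowest. The log2 fold change was 0.99 (SE 0.251, 95% confidence interval 0.45 to 1.52, adjusted p = 0.0089 by edgeR). It passed the threshold on p and missed that on fold. SREBF1 was called higher with the replicate block (1.02, adjusted p = 0.00029 by edgeR) and with totals of all filtered reads (1.19, adjusted p = 0.0028 by edgeR). With each library left out it was 0.75 to 1.14, and the adjusted p of 0.011 to 0.033 by edgeR missed the threshold. Plain totals missed it too (adjusted p = 0.0105 by edgeR). The T > C reads of SREBF1 were few, 14, 3 and 23 in DMSO and 7, 11 and 17 in C646, and the groups overlapped (0.416 to 3.10 CPM against 0.927 to 1.69 CPM). Their log2 fold change of -0.31 (SE 0.591) had an adjusted p of 0.67 by edgeR and became 0.45 without DMSO library 3, so no direction can be given. The odds of a T > C read changed by -1.33 (SE 0.561, adjusted p = 0.042 by edgeR), which was not called, and by -0.68 without DMSO library 3 (adjusted p = 0.39 by edgeR). Within the libraries, the ratio of SREBF1 reads to SREBF2 reads, which needs no scaling, was 0.126, 0.0764 and 0.135 in DMSO and 0.232, 0.197 and 0.274 in C646. The 2 groups did not overlap in this ratio (two-sided exact permutation p = 0.1, the smallest that 3 against 3 allow).

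Among the enzymes, HMGCS1 makes HMG-CoA at the entry of the mevalonate pathway. It had 76, 50 and 68 T > C reads in DMSO and 43, 38 and 81 in C646, or 8.02, 6.94 and 9.17 CPM against 5.69, 4.66 and 8.05 CPM. The groups overlapped, since C646 library 3 lay within the range of DMSO. The log2 fold change was -0.38 (SE 0.281, 95% confidence interval -0.95 to 0.19, adjusted p = 0.25 by edgeR), 0.45 above the median of all genes. HMGCS1 was not called with any library left out, with values from -0.64 (without C646 library 3, adjusted p = 0.071 by edgeR) to -0.22. Its odds of a T > C read changed by -0.24 (SE 0.272, adjusted p = 0.44 by edgeR), and 86.2% of tested genes had a lower value. Its T > C share was 10.5% ± 1.83 in DMSO and 8.94% ± 1.103 in C646. All reads were 74.8, 80.8 and 74.96 CPM in DMSO and 69.9, 55.0 and 78.9 CPM in C646, with a log2 fold change of -0.18 (95% confidence interval -0.50 to 0.15).

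IDI1, which isomerises isopentenyl diphosphate, had 99, 78 and 108 T > C reads in DMSO and 36, 39 and 52 in C646. These amounted to 10.4, 10.8 and 14.6 CPM in DMSO and 4.77, 4.79 and 5.17 CPM in C646. The C646 libraries were close to each other and all below DMSO. IDI1 fell by 1.28 on the log2 scale (SE 0.261, adjusted p = 0.00016 by edgeR), a call that was lost with TMM on the T > C reads (-0.45, adjusted p = 0.20). The odds of a T > C read fell by 1.58 on the log2 scale (SE 0.289, adjusted p = 8.0e-05 by edgeR). All reads of IDI1 moved in the other direction by a small amount, from 57.6, 56.8 and 55.55 CPM in DMSO to 60.5, 59.2 and 62.1 CPM in C646. The groups did not overlap there, but the log2 fold change of 0.10 (95% confidence interval -0.19 to 0.38) was not called.

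SQLE, squalene epoxidase, an oxygen-dependent and rate-limiting step of the sterol branch, had the lowest log2 fold change in T > C reads of the 7, except without C646 library 1, where DHCR7 (-2.33) lay below SQLE (-2.26). There were 70, 74 and 45 in DMSO and 13, 8 and 22 in C646, or 7.39, 10.3 and 6.07 CPM against 1.72, 0.982 and 2.19 CPM. The highest C646 library was well below the lowest DMSO library. SQLE fell by 2.25 on the log2 scale (SE 0.370, adjusted p = 1.0e-05 by edgeR), and 8.05% of tested genes had a lower one. The share of T > C reads was 9.86%, 8.03% and 7.02% in DMSO and 2.11%, 1.08% and 2.62% in C646, and its odds fell by 2.18 on the log2 scale (SE 0.324, adjusted p = 7.6e-06 by edgeR). All reads were 74.9, 128 and 86.4 CPM in DMSO and 81.4, 91.2 and 83.3 CPM in C646. DMSO library 2 stood above the others, the groups overlapped, and the log2 fold change was -0.17 (95% confidence interval -0.55 to 0.20).

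DHCR7, which carries out the last reduction on the way to cholesterol, had 26, 26 and 10 T > C reads in DMSO and 10, 5 and 4 in C646, or 2.74, 3.61 and 1.35 CPM against 1.32, 0.614 and 0.397 CPM. DMSO library 3 and C646 library 1 nearly met. The log2 fold change of -1.74 (SE 0.584) had an adjusted p of 0.0127 by edgeR and was not called, while without C646 library 1 it was -2.33 and called (adjusted p = 0.0050 by edgeR). With each other library left out it was -2.04 to -1.40 and not called (adjusted p = 0.11 without DMSO library 2), and TMM taken from the T > C reads gave -0.91 (adjusted p = 0.26 by edgeR). The odds of a T > C read changed by -1.28 (SE 0.463, adjusted p = 0.020 by edgeR), which was not called either. All reads were 56.4, 61.5 and 53.8 CPM in DMSO and 49.0, 35.7 and 35.96 CPM in C646, every C646 library below every DMSO library. With a log2 fold change of -0.51 (SE 0.162, adjusted p = 0.027 by edgeR) this did not pass.

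**Figure D2:**
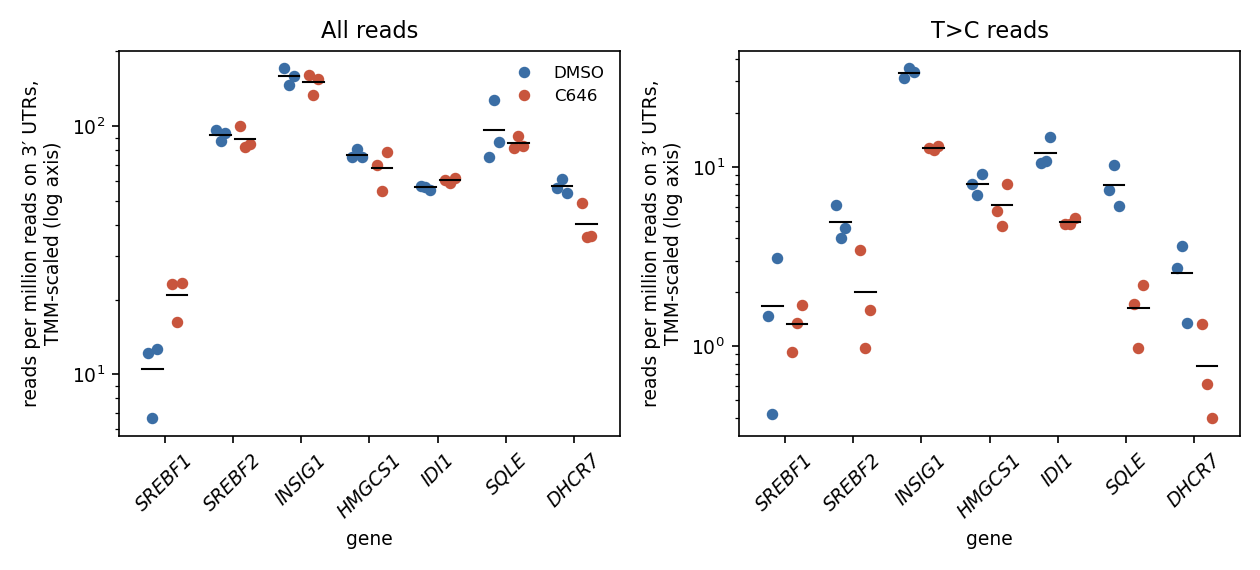
Levels of the 7 genes in each library, in CPM of the reads on 3′ UTRs (log axis, scaled by TMM), for all reads on the left and T > C reads on the right, with DMSO in blue, C646 in red and a line at the mean of 3 libraries. All reads differ little between the groups except in SREBF1, where C646 is higher, and DHCR7, where it is lower, whereas T > C reads of INSIG1, IDI1 and SQLE are well separated and those of SREBF2 and DHCR7 narrowly.

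In all reads none of the 7 members was called by edgeR in either direction, and DESeq2 called 0 as well. At an unadjusted p below 0.05 edgeR had 1 lower (DHCR7) and 1 higher (SREBF1). Of the 10851 genes tested in all reads, 1.88% were called lower and 5.89% higher (90 and 1014 genes with totals of all filtered reads, against 204 and 639), and the median log2 fold change of the members was -0.09 against 0.00 for all genes. In T > C reads, 5 of the 7 members had every C646 library below every DMSO library (INSIG1, IDI1, SQLE, SREBF2 and DHCR7), which held for 55.8% of all genes tested. In all reads, DHCR7 had every C646 library lower (23.1% of tested genes) and SREBF1 and IDI1 had every C646 library higher (24.5%).

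**Figure D3:**
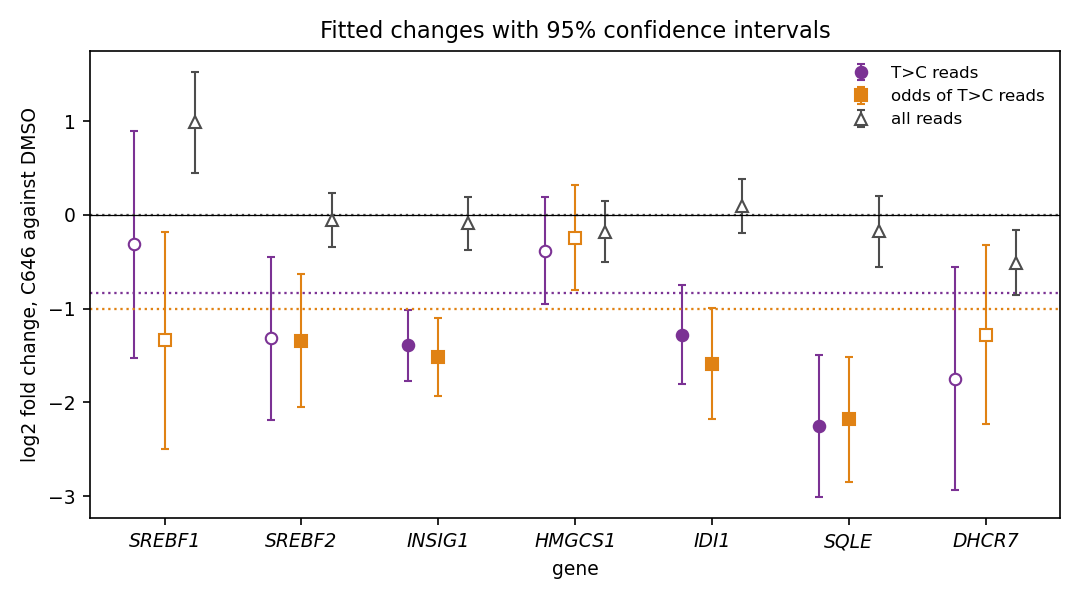
Log2 fold change of C646 against DMSO (y axis) with 95% confidence intervals for the 7 genes (x axis), in T > C reads (circles), in the odds of T > C reads (squares) and in all reads (triangles). Filled symbols passed both thresholds and dotted lines mark the median of all tested genes, which is -0.83 in T > C reads and -1.004 in the odds. HMGCS1 lies above both medians and SQLE lies furthest below them.

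T > C reads of HMGCS1 were also set against those of other members within the same libraries. The number of HMGCS1 T > C reads per T > C read of SQLE was 1.09, 0.676 and 1.51 in DMSO and 3.31, 4.75 and 3.68 in C646. Set against INSIG1, it was 0.257, 0.196 and 0.271 in DMSO and 0.448, 0.376 and 0.614 in C646, and against IDI1 it was 0.768, 0.641 and 0.630 in DMSO and 1.19, 0.974 and 1.56 in C646. In each of these 3 ratios all C646 libraries lay above all DMSO libraries, with a two-sided exact permutation p of 0.1, the smallest possible here (adjusted p = 0.125 over the 5 ratios computed, that of SREBF1 to SREBF2 included). Set against DHCR7, the ratio was 2.92, 1.92 and 6.80 in DMSO and 4.30 to 20.2 in C646, and the groups overlapped (two-sided exact permutation p = 0.2). The ratios were chosen after the values of the genes had been seen. HMGCS1 had a higher log2 fold change in T > C reads than 70.3% of all tested genes. A rise of HMGCS1 against another gene is therefore not particular to these members, and ratios to further genes were not computed.

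In the C646 libraries the shares of HMGCS1 (8.94%), INSIG1 (8.53%) and IDI1 (8.10%) overlapped, whereas in DMSO HMGCS1 had lain below the other two. The shares of SREBF2, SQLE and DHCR7 in C646 were 2.17% ± 1.15, 1.94% ± 0.788 and 1.84% ± 0.806. The difference between C646 and DMSO in the share gave a two-sided exact permutation p of 0.1 for SREBF2, INSIG1, IDI1 and SQLE, 0.2 for HMGCS1 and DHCR7 and 0.3 for SREBF1, and the adjusted values over 7 genes were 0.175 to 0.3. The groups of the first 4 did not overlap, with C646 lower, which held for 64.6% of the 7709 tested genes with reads in every library, so this count is near that of all genes. The T > C reads of some of the genes carried fewer conversions each in C646. They had 1.12 ± 0.126 conversions per T > C read in DHCR7 in C646 against 2.20 ± 0.104 in DMSO, and 1.40 ± 0.337 against 2.52 ± 0.168 in SREBF2. SREBF1 had 1.44 ± 0.152 against 2.16 ± 0.147 and INSIG1 2.08 ± 0.242 against 2.52 ± 0.190. In HMGCS1 (2.07 ± 0.315 against 2.22 ± 0.0856), IDI1 (2.24 ± 0.471 against 2.31 ± 0.136) and SQLE (1.63 ± 0.364 against 2.21 ± 0.323) the groups overlapped. The median over 8079 genes was 1.78 in C646 and 2.08 in DMSO. A T > C read has at least 1 conversion, so the value of DHCR7 in C646 lies near the floor. It rests on 10, 5 and 4 T > C reads, and that of SREBF2 in C646 on 26, 8 and 16. The groups did not overlap in conversions per T > C read in SREBF1, SREBF2, INSIG1 and DHCR7, with an exact permutation p of 0.1 each, the smallest that 3 against 3 libraries allow (adjusted p = 0.175 over 7 genes), and all C646 libraries lay below all DMSO libraries in 24.4% of the 8079 genes.

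The other genes of the pathway are given from 5 lists of 63 genes, of which 45 could be tested in T > C reads. Of these, 16 were called lower and 1 higher (33.0% and 2.97% of all tested genes), and the median log2 fold change was -0.82 against -0.83 for all genes. With TMM taken from the T > C reads the balance turned, to 4 lower and 6 higher. Of the 45, 2 passed the filter on low counts only through DMSO and were called lower and 1 only through C646 and was called higher, so these calls are a description. In all reads 59 were tested, with 0 called lower and 1 higher by edgeR (1.88% and 5.89% of all tested genes), 0 lower and 2 higher by DESeq2, and 10 lower and 15 higher at an unadjusted p below 0.05.

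Of the other cholesterol synthesis enzymes, 7 of 12 tested (16 on the list) were called lower in T > C reads and 1 higher, with a median of -1.18, beside 33.0% lower, 2.97% higher and a median of -0.83 over all tested genes. Of the 7, 1 passed the filter on low counts only through the DMSO group, so its call is a description. LBR, the lamin B receptor with sterol reductase activity, fell by 2.78 on the log2 scale (SE 0.389), and NSDHL, a sterol dehydrogenase, by 1.70 (SE 0.482). HSD17B7, a sterol ketoreductase, had 12 to 19 T > C reads per C646 library against 1 to 2 in DMSO. It passed the filter on low counts only through the C646 group, and its call as higher is given as a description. Of its reads, 1.52% were multimapped.

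Among the genes of SREBP processing and sterol sensing, 3 of 8 tested (12 on the list) were called lower in T > C reads (33.0% of all tested genes), with a median of -0.80. They include SPRING1, a regulator of SREBP processing (-1.96, SE 0.413), and ERLIN2, a protein of endoplasmic reticulum membranes (-1.17, SE 0.281). T > C reads of SCAP, the escort of SREBP, had a log2 fold change of -1.19 (SE 0.418) that was not called (adjusted p = 0.017 by edgeR), whereas their odds fell by 1.65 on the log2 scale (SE 0.320, adjusted p = 0.00016 by edgeR), which was called. None was called higher, in edgeR also at an unadjusted p below 0.05 (0 genes) and in DESeq2 (0 genes).

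Of the fatty acid synthesis genes, 5 of 8 tested (11 on the list) were called lower in T > C reads (33.0% of all tested genes) and the median was -1.75. FASN, the fatty acid synthase, fell by 3.21 (SE 0.369) and LPIN1, a phosphatidate phosphatase, by 2.31 (SE 0.431). The desaturase gene FADS1 had 11 to 29 T > C reads per DMSO library and 0 to 5 in C646. It passed the filter on low counts only through the DMSO group, and its call as lower (-2.90, SE 0.717) is given as a description. None was called higher, in edgeR also at an unadjusted p below 0.05 (0 genes) and in DESeq2 (0 genes). In the branches of the pathway that do not lead to sterols, 1 of 9 tested genes (10 on the list) was called lower (33.0% of all tested genes), COQ2 of coenzyme Q synthesis (-1.50, SE 0.390), and the median was -0.73.

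None of the 8 tested genes of sterol uptake, transport and export (14 on the list) was called in T > C reads by edgeR or DESeq2 (0 each, beside 33.0% lower and 2.97% higher of all tested genes by edgeR), and the median was -0.70 against -0.83 for all genes, while 2 were lower and 1 higher at an unadjusted p below 0.05.

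The genes whose levels over the 6 libraries most resembled those of a member were VDAC2, a mitochondrial channel, for INSIG1, VMA21, an assembly factor of the vacuolar ATPase, for HMGCS1, and GORASP2, a Golgi stacking protein, for IDI1. Likeness was the mean absolute difference over 12 values per gene, the log2 CPM plus 0.5, once for T > C and once for all reads in each of 6 libraries, each set against the DMSO mean. It was 0.0737 for VDAC2, 0.115 for VMA21 and 0.0850 for GORASP2, against medians of 0.349 to 0.356 over the 2840 other genes that averaged 50 or more T > C reads. The log2 fold changes in T > C reads of the 3 genes were -1.42, -0.43 and -1.22.

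Scaling sets the zero of the T > C changes. When T > C reads were scaled by TMM on themselves, the median of all genes moved from -0.83 to 0.01, SQLE alone remained called (-1.43, adjusted p = 0.0038 by edgeR), INSIG1 and IDI1 stood at -0.56 and -0.45, and HMGCS1 and SREBF1 turned to 0.45 and 0.50. Set against the median of all genes, the main values were -1.42 for SQLE, -0.92 for DHCR7, -0.56 for INSIG1, -0.49 for SREBF2, -0.45 for IDI1, 0.45 for HMGCS1 and 0.52 for SREBF1.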

How the data were processed

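RNA of MOLM-13 cells in 3 DMSO and 3 C646 samples was analysed by SLAM-seq with 3′ end libraries. Alignment to GRCh38 and counting were done by the authors with SLAM-Dunk v0.4.1, and the deposited table of each library lists raw counts of all, T > C and multimapped reads and of conversions on 58136 entries of 3′ UTRs. A deposited fraction, conversions over coverage on T positions, was recomputed from the counts. The deposited signal is the coverage summed over T positions, and the deposited CPM, scaled by the authors' software to all filtered reads of a library, served only to recover those totals. Counts were summed over the entries of each gene.

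The genes and lists were chosen with earlier results of these data known. The named genes are all 8 members, SCAP, at most 3 called genes per list and direction with the largest change, and the gene nearest to each member that averaged 50 or more T > C reads. Results for some further genes that met the rule are not reported here.

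Tests used edgeR 4.0.16 (filterByExpr, estimateDisp, glmQLFit, glmQLFTest) in R 4.3.3 across all genes, with Benjamini-Hochberg adjustment. Library sizes were TMM-scaled totals of all reads. The model of the odds had a term for each library, 1 for T > C reads and their interaction with treatment. The study called genes with DESeq2 on reads with at least 2 conversions, whereas the T > C reads deposited here have 1 or more. For shares and ratios, exact permutation tests were run, two-sided (scipy 1.17.1). The scripts were tested on simulated data. The median tested gene had 35 T > C reads in a library, which limits the precision gene by gene. Chi-square per degree of freedom between libraries of a group was 7.87 to 27.7, so none was a duplicate. Alternatives were other library sizes, DESeq2 1.42.0, other filters and thresholds, the entry with the most reads, a replicate block and each library left out.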

Additional observations from a re-analysis of the deposited data

How the results depend on the processing

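INSIG1, IDI1 and SQLE stayed called lower in T > C reads in each setting where they were tested, except that INSIG1 and IDI1 were lost when T > C reads were scaled by TMM on themselves, and SQLE was not tested with a minimum of 50 T > C reads. Members called lower in T > C reads numbered 1 under the same scaling, against 3 in the report, 5 at an adjusted p of at most 0.05, and 3 to 5 with each library left out (5 without C646 replicate 1). In the odds, 2 were called with a minimum of 50 T > C reads, where SQLE and SREBF2 were not tested, against 4, and 3 to 4 with each library left out. In all reads 1 member, SREBF1, was called higher with totals of all filtered reads (log2 fold change 1.19), and 1 without a fold threshold, and none with any library left out. With T > C reads scaled by TMM on themselves, the T > C reads of SREBF1 and HMGCS1 were at 0.50 and 0.45, and those of SREBF1 ran from -0.76 to 0.45 (without DMSO replicate 3) with each library left out. With totals of all filtered reads, all reads of SREBF2, INSIG1, HMGCS1 and SQLE were at 0.15, 0.12, 0.032 and 0.034, as the median of all genes moved to 0.20. With each library left out, all reads of SREBF2 ran from -0.14 to 0.0038 (without C646 replicate 2) and those of SQLE from -0.33 to 0.079 (without DMSO replicate 2). The other lists had 4 genes lower and 6 higher when T > C reads were scaled by TMM on themselves, and 2 higher with totals of all filtered reads, and 11 to 18 lower and 1 higher with each library left out. The cause of these changes was not tested. The T > C shares in DMSO moved by less than 1 SD under each alternative run on them, and their places among all genes, taken from conversions per covered T, by less than the SD of the place over 3 libraries.

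Same-numbered libraries correlated in their deviations from the group means by 0.030 to 0.065 in T > C reads and by -0.0013 to 0.23 in all reads. Differently numbered libraries correlated by -0.050 to 0.016 in T > C reads, below every same-numbered value, and by -0.22 to 0.15 in all reads. The labels do not name pairs, and the main fits did not use the numbers as such. With the replicate as a block, 4 members were called lower in T > C reads (SREBF2 at -1.39) and 4 in the odds, and 1 member was called higher in all reads (SREBF1 at 1.02). SREBF1, SREBF2 and DHCR7 had few T > C reads, as SQLE had in C646. Whether depth bears on which members were called was not tested.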
